A study of Mus musculus with 46 samples.

Results

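The genes described here are 8 transcription factors known for their part in building or keeping the identity of neurons of the hypothalamic arcuate nucleus: *Prdm12*, *Sox3*, *Otp*, *Nkx2-1*, *Isl1*, *Tbx3*, *Bsx* and *Nhlh2*. They were taken by name, as 8 of the 31854 genes of the RNA count table, together with every open-chromatin peak centred within 50 kb of their annotated start sites in mm10. This gave 39 of 67472 peaks in the table of sorted nuclei and 71 of 123721 peaks in the table of feeding states. The genes were chosen by measured values of these data in part: *Prdm12* and *Sox3* were selected on their RNA difference between AgRP and POMC neurons of fed mice, and *Otp* on its RNA change with feeding state in AgRP neurons. Those values are therefore given below as a description, with no test. So is the fed comparison of the lines for all 8, since members were first seen in it. The tests concern other comparisons than these, and open chromatin. Some of them share libraries with the naming: the AgRP fasted and leptin values of *Otp*, and the AgRP fed values of *Prdm12* and *Sox3*, took part in it and also enter a comparison below, where they are given as descriptions. For the peaks the rule was distance alone. Among the sorted nuclei the outermost peak inside the window lay 48356 bases downstream of the *Prdm12* start site, and the nearest peak outside it lay 50184 bases downstream of that of *Tbx3*.

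AgRP neurons and POMC neurons sit side by side in the arcuate nucleus and drive feeding in opposite directions: AgRP neurons are active in hunger and release AgRP, NPY and GABA, while POMC neurons cleave proopiomelanocortin to melanocortin peptides that restrain intake. Both respond to leptin, the hormone of fat stores. During development many hypothalamic progenitors pass through a Pomc-expressing stage, and combinations of homeodomain, T-box, basic helix-loop-helix and other DNA-binding factors then fix which peptide a mature neuron makes. ISL1 and NKX2-1 are homeodomain factors known to act at *Pomc* regulatory elements, and PRDM12 is a zinc-finger factor that *Pomc* expression in the hypothalamus needs. SOX3 is a SOXB1 factor of neural progenitors and of the hypothalamic-pituitary axis. TBX3 is a T-box factor tied to the maturation of both melanocortin cell types, OTP and BSX are homeodomain factors tied to AgRP and other neuroendocrine neurons, and NHLH2 is a basic helix-loop-helix factor whose loss causes adult-onset obesity in mice.

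RNA came from male mice of NuTRAP lines, in which Cre switches on a GFP-tagged L10a ribosomal subunit and a mCherry-tagged RANGAP. The Cre was AgRP-IRES-Cre (NuTRAP AgRP) or POMC-IRES-Cre (NuTRAP Pomc), and every group carried the reporter. Ribosome-bound RNA was pulled down with a GFP antibody (translating ribosome affinity purification). Mice were fed ad libitum, fasted overnight and given PBS vehicle, or fasted overnight and given leptin by intraperitoneal injection. The paper's methods give vehicle or leptin injection after describing fed and fasted mice, and do not say separately whether fed mice were injected. There were 3 fed, 4 fasted and 4 leptin libraries of the AgRP line, each of 4 pooled arcuate nuclei from mice of 6 to 11 weeks, and 2 libraries per state of the POMC line. Each RNA library held between 25581041 and 54511107 counts. The labels name the AgRP line alone in the pull-down protocol, so the age of the POMC mice is not known here. The paper states that 4 arcuate nuclei were pooled for its later pull-downs, without naming the POMC line there. Open chromatin was measured by ATAC-seq on nuclei sorted for GFP from NuTRAP AgRP mice of 6 to 11 weeks. A first table holds 2 libraries of AgRP-positive and 2 of AgRP-negative arcuate nuclei of fed mice, with 8685497 to 11177208 counts in peaks. A second holds AgRP-positive nuclei only, 2 libraries per feeding state, with 8263234 to 17190963 counts. The shallowest was fed replicate 1 of the second table. AgRP-negative nuclei are a mixture of all remaining arcuate cells. The mouse line, the Cre driver and any difference in handling cannot be told apart in a comparison of AgRP with POMC libraries.

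The labels were checked on defining markers, in CPM (counts scaled to a common library total with TMM factors). *Npy* was the most abundant of 5 AgRP neuron markers by its mean over all 17 RNA libraries, the rule for each leading marker below. The sum of the 5 ran from 1592 to 6317 CPM in AgRP libraries against 103 to 195 CPM in POMC libraries. The 4 POMC neuron markers that could be measured, led by *Pomc*, summed to 1636 to 3027 CPM in POMC libraries and 193 to 319 CPM in AgRP libraries. No marker of either list was at 0 in any library. The libraries numbered 4 of the AgRP line and those numbered 2 of the POMC line stood apart from the others of their line. Astrocyte markers, led by *Slc1a3*, summed to 895 to 970 CPM in the 3 AgRP libraries numbered 4 against 470 to 686 CPM in the other 8. In the POMC line the sums were 1095 to 1228 CPM in the libraries numbered 2 against 680 to 779 CPM in those numbered 1. Pituitary markers, led by *Cga*, reached 5.07 CPM at most in AgRP libraries. In POMC libraries they summed to 9.08 to 12.1 CPM in fed and fasted mice and to 23.9 and 39.5 CPM after leptin. Markers of other arcuate neurons summed to 163 to 325 CPM in AgRP and 331 to 573 CPM in POMC libraries. Results without the libraries that stood apart are given where that fit could be run. In such pulled-down RNA, fewer cells of a type and less RNA per cell cannot be told apart.

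The promoters of the members whose peak over or nearest the start site differed most between AgRP-positive and AgRP-negative nuclei are shown first, as the 250 bases before the RefSeq start on the coding strand (GRCm38.p6). Capitals mark CpG dinucleotides. The *Otp* promoter, with 18 CpG, lies at chr13:94875386-94875635 on the plus strand, and that of *Nkx2-1*, with 9, at chr12:56536909-56537158 on the minus strand. The *Bsx* promoter, with 14, lies at chr9:40873877-40874126 and that of *Nhlh2*, with 2, at chr3:102009895-102010144, both on the plus strand. The nearest *Nhlh2* and *Nkx2-1* peaks of the sorted nuclei lie downstream and do not cover the printed bases. RefSeq promoters were matched for 6 of the 8 genes. Their median was 12 CpG, and the median of all 32851 promoters was 6. *Isl1* had the most, 33, and *Prdm12* had 10.
Otp promoter: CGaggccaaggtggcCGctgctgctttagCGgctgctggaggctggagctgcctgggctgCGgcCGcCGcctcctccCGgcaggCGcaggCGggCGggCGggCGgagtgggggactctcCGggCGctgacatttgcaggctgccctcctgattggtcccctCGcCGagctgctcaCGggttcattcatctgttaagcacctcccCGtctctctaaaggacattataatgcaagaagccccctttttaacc
Nkx2-1 promoter: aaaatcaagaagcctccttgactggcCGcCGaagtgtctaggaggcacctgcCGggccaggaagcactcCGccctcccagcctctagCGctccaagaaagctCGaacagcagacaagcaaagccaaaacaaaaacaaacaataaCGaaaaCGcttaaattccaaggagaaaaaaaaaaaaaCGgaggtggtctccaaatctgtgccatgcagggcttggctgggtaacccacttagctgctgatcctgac
Bsx promoter: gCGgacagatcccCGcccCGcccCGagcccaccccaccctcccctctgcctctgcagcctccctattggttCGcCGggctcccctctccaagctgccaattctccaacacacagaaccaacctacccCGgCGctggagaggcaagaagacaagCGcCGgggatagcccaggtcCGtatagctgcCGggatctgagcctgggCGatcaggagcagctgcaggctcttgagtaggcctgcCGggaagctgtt
Nhlh2 promoter: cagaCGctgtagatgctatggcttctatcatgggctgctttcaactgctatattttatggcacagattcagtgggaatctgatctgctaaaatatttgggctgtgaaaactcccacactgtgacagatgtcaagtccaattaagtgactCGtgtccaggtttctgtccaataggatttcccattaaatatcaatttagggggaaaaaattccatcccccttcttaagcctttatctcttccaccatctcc

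Of 6 motifs searched on both strands in these 250 bases, only the E-box CAGCTG had a match in a member promoter, in *Bsx* (from base 212 of the sequence above) and in *Isl1*. It occurs in 13% of all promoters. The homeodomain core TAATTA (4.84% of all promoters), the T-box motif AGGTGTGA (1.12%), the SOX motif AACAATG (3.29%), the STAT motif TTCNNNGAA (7.02%) and the AP-1 motif TGANTCA (6.75%) had no match in the 6. A match is a description of letters and not a bound site.

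The 8 factors fell into 3 patterns across the neuron types. *Prdm12*, *Sox3*, *Nkx2-1*, *Nhlh2* and *Tbx3* had their higher levels in POMC libraries, *Otp* and *Bsx* in AgRP libraries, and *Isl1* was at similar levels in both. *Prdm12* RNA in AgRP libraries was 3.17, 2.98 and 3.75 CPM when fed, 3.20, 2.40, 2.76 and 2.67 CPM when fasted, and 2.80, 2.32, 1.68 and 3.26 CPM after leptin. In POMC libraries it was 77.4 and 54.5 CPM when fed, 109 and 62.7 CPM when fasted, and 78.7 and 35.4 CPM after leptin. The lowest POMC library stood far above the highest AgRP library, and within each POMC state the library numbered 1 was the higher. *Sox3* had the same layout at a lower level. It lay between 0.892 and 1.85 CPM in the 11 AgRP libraries, and at 31.7 and 21.0 CPM (fed), 23.3 and 19.4 CPM (fasted) and 22.6 and 11.7 CPM (leptin) in POMC libraries.

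*Nkx2-1*, the homeodomain factor that patterns the ventral forebrain, was present in both neuron types. AgRP libraries held 6.87, 7.34 and 11.5 CPM when fed, 7.06, 8.72, 7.49 and 9.50 CPM when fasted, and 6.68, 8.78, 6.68 and 12.7 CPM after leptin. POMC libraries held 34.5 and 33.4 CPM, 39.4 and 31.4 CPM, and 37.5 and 25.8 CPM in the same order. The groups did not overlap, and the libraries numbered 4 were the highest AgRP library in each state. *Nhlh2* ranged from 3.50 to 7.40 CPM (median 5.72) over the AgRP libraries and was 22.8 and 21.9 CPM (fed), 34.3 and 23.0 CPM (fasted) and 29.4 and 19.4 CPM (leptin) in POMC libraries. *Tbx3* was abundant throughout, from 58.7 to 96.3 CPM (median 83.7) in AgRP libraries. In POMC libraries *Tbx3* stood at 166 and 119 CPM, 201 and 123 CPM, and 186 and 88.3 CPM. The groups of each state did not overlap, but the lowest POMC library was below several AgRP libraries of other states.

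*Otp* was the clearest AgRP member. It was at 61.1, 82.6 and 74.5 CPM in fed, 91.5, 96.9, 125 and 105 CPM in fasted, and 52.6, 72.4, 93.4 and 72.5 CPM in leptin AgRP libraries. In POMC libraries it was at 7.04 and 11.0 CPM, 5.90 and 11.3 CPM, and 7.89 and 11.5 CPM. *Bsx*, a brain-specific homeobox gene that normal *Agrp* and *Npy* expression needs, was less abundant: 12.0, 12.6 and 14.6 CPM in fed, 12.5, 11.1, 11.4 and 15.6 CPM in fasted, and 8.65, 7.87, 10.7 and 10.8 CPM in leptin AgRP libraries. POMC libraries held 4.90 and 5.18 CPM, 3.88 and 5.07 CPM, and 4.53 and 5.73 CPM of *Bsx*. For these genes, the reverse of the POMC-high members, the POMC library numbered 2 was the higher in each state. *Isl1* ranged from 54.9 to 94.8 CPM (median 69.8) in AgRP libraries and was 57.8 and 42.4 CPM, 74.5 and 39.6 CPM, and 69.9 and 42.1 CPM in POMC libraries. Its POMC libraries numbered 1 lay within the AgRP range of their state, and those numbered 2 stood below every AgRP library.

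**Figure D1:**
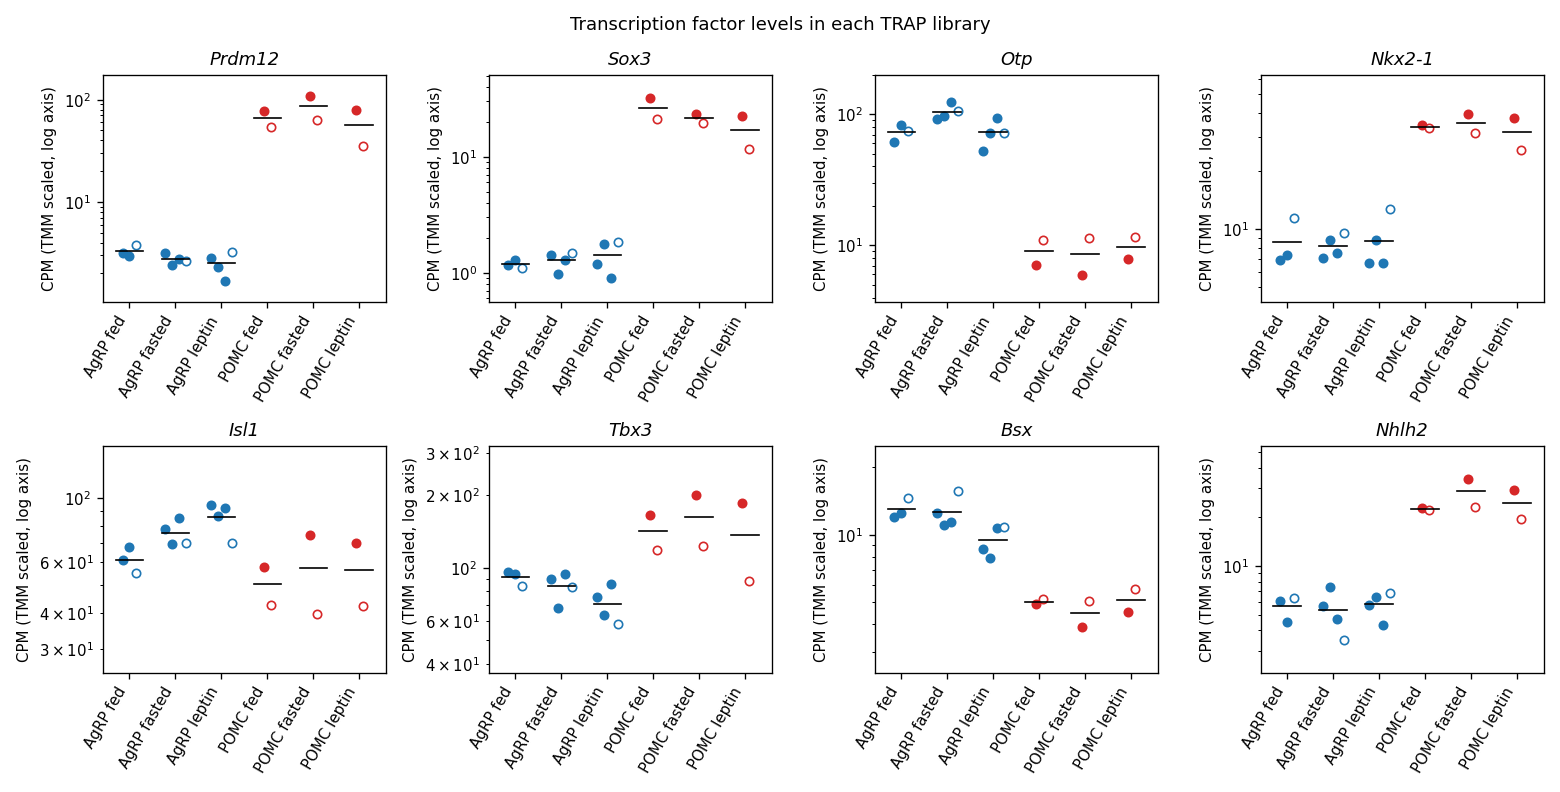
RNA level of each member (CPM, log axis) in every library, by line and feeding state; the horizontal line is the group mean and open circles are the AgRP libraries numbered 4 and the POMC libraries numbered 2. *Prdm12* and *Sox3* are far higher in POMC libraries, *Otp* in AgRP libraries, and *Isl1* overlaps.

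Levels of different genes were compared per kilobase of annotated exon, as the mean ± SD over all libraries of a line. In AgRP libraries (n = 11) *Otp* was the highest at 71.3 ± 17.6 CPM per kb. *Isl1* (19.3 ± 3.32), *Tbx3* (16.2 ± 2.60) and *Bsx* (13.3 ± 2.59) followed, each apart from its neighbour by less than their SDs added together. *Nkx2-1* came next at 2.96 ± 0.705. *Nhlh2* (1.48 ± 0.315) and *Prdm12* (1.14 ± 0.226) were again within their SDs, and *Sox3* was last at 0.635 ± 0.147 CPM per kb. In POMC libraries (n = 6) *Tbx3* (29.4 ± 8.73) and *Prdm12* (28.2 ± 10.2) led. Below them lay *Isl1* (13.9 ± 3.91), *Nkx2-1* (11.8 ± 1.68), *Sox3* (10.5 ± 3.15), *Otp* (7.72 ± 2.09), *Nhlh2* (6.69 ± 1.48) and *Bsx* (5.58 ± 0.719), no neighbours of which were apart by more than their SDs together. *Sox3* is a gene of a single exon, and *Nkx2-1* and *Tbx3* overlap or adjoin the noncoding genes *Gm26973*, *Tbx3os1* and *Tbx3os2*. The study's methods describe a gene annotation altered to reduce overlap between transcripts, and no strand setting is stated for the counting, so how far reads of such partners were separated is not known here.

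The difference between the lines was tested in the 12 fasted and leptin libraries, with edgeR's quasi-likelihood test and Benjamini-Hochberg false discovery rates (FDR) over all 13419 genes tested. A gene was called at an FDR under 0.05 and a log2 fold change beyond 0.5. In fasted mice 7 of the 8 members were called, 2 higher and 5 lower in AgRP than in POMC libraries, where 6.74% of all genes were called higher and 4.38% lower. *Otp* is 1 of the 2 higher, and since its fasted AgRP values took part in its naming, its difference is a description. *Prdm12* and *Sox3*, among the 5 lower, were selected on the same difference in fed mice. Same-numbered libraries of a line deviated together across states, so their calls are not independent of that choice. The counts of members hold all of these and cannot be weighed against the shares of all genes. The difference was largest for *Prdm12* on the log2 scale (-4.97, SE 0.34, FDR 2.01e-05), with *Sox3* next at -4.06 (SE 0.31, FDR 4.34e-05). *Otp* was 12.2-fold higher in AgRP libraries (log2 fold change 3.60, SE 0.33) and *Bsx* 2.82-fold higher (1.50, SE 0.22, FDR 0.00137). *Nhlh2* was lower by -2.43 (SE 0.28) and *Nkx2-1* by -2.11 (SE 0.25). *Tbx3* was only just called at -0.95 (SE 0.28, FDR 0.0446), and *Isl1* was not, at 0.40 (SE 0.25, FDR 0.320). Without POMC fasted replicate 1 the *Tbx3* difference was -0.56 (FDR 0.289), and without any of the AgRP fasted libraries its FDR lay between 0.0530 and 0.0974.

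In leptin-treated mice 6 members were called, 2 higher and 4 lower, where 5.15% of all genes were called higher and 3.66% lower. *Otp* is again 1 of the 2 higher, as a description, and *Prdm12* and *Sox3*, among the 4 lower, carry the same limit as in fasted mice. Of the 3 pituitary markers tested here 3 were lower in AgRP libraries (median log2 fold change -3.62), and their part in the leptin comparison was not tested. *Prdm12* (-4.52, SE 0.33), *Sox3* (-3.59, SE 0.31), *Nhlh2* (-2.07, SE 0.28) and *Nkx2-1* (-1.87, SE 0.25) were lower in AgRP libraries. *Otp* (2.90, SE 0.32) and *Bsx* (0.89, SE 0.21, FDR 0.0216) were higher. The *Bsx* call was lost without AgRP leptin replicate 3 or without either POMC leptin library, at FDRs of 0.0588, 0.141 and 0.0679. *Tbx3* (-0.95, SE 0.28, FDR 0.0521) and *Isl1* (0.62, SE 0.26, FDR 0.154) were not called. With the replicate number as a block within each line, *Tbx3* (-0.87, SE 0.09) and *Isl1* (0.65, SE 0.08) passed the threshold too, and the calls over all genes in this comparison went from 691 higher and 491 lower to 1213 and 1745. Each replicate set lies within 1 line, so that fit leaves the spread between sets out of the error of a difference between lines, and its added calls are not counted here. Without the AgRP libraries numbered 4 and the POMC libraries numbered 2 *Isl1* was at 0.37 (FDR 0.0793).

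With the AgRP libraries numbered 4 and the POMC libraries numbered 2 left out, a choice made after seeing the data, the fasted comparison again called 2 higher and 5 lower. In that fit 1 POMC library per state remains, so the spread came from the AgRP libraries and the lone POMC library is assumed to vary like them. Over all genes it called 1144 higher and 1186 lower in fasted mice in place of 904 and 588, and 979 and 952 after leptin. The log2 fold changes were then -5.33 for *Prdm12*, -4.28 for *Sox3*, 4.12 for *Otp*, -2.36 for *Nkx2-1*, -2.55 for *Nhlh2*, 1.56 for *Bsx*, -1.28 for *Tbx3* (FDR 0.00365) and 0.03 for *Isl1*. In the leptin comparison 2 were higher and 5 lower, with *Tbx3* called at -1.32 (FDR 0.00416). For scale, of the 4 POMC neuron markers tested in the fasted comparison 2 were called lower, *Pomc* (-5.80, SE 0.24) and *Cartpt* (-3.48, SE 0.30). The other 2, *Pcsk1* (0.31, SE 0.19) and *Ttr* (0.20, SE 0.73), were not called. What share of the low *Prdm12* and *Sox3* signal in AgRP libraries came from RNA of other cells was not tested.

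In fed mice, where the members were first seen, the log2 fold changes of AgRP against POMC libraries were -4.33 for *Prdm12*, -4.47 for *Sox3*, 3.01 for *Otp*, -2.0 for *Nkx2-1*, 0.29 for *Isl1*, -0.64 for *Tbx3*, 1.37 for *Bsx* and -2.0 for *Nhlh2*. These are descriptions with no test. Over all 13453 genes of that fit 1.09% were called in each direction.

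**Figure D2:**
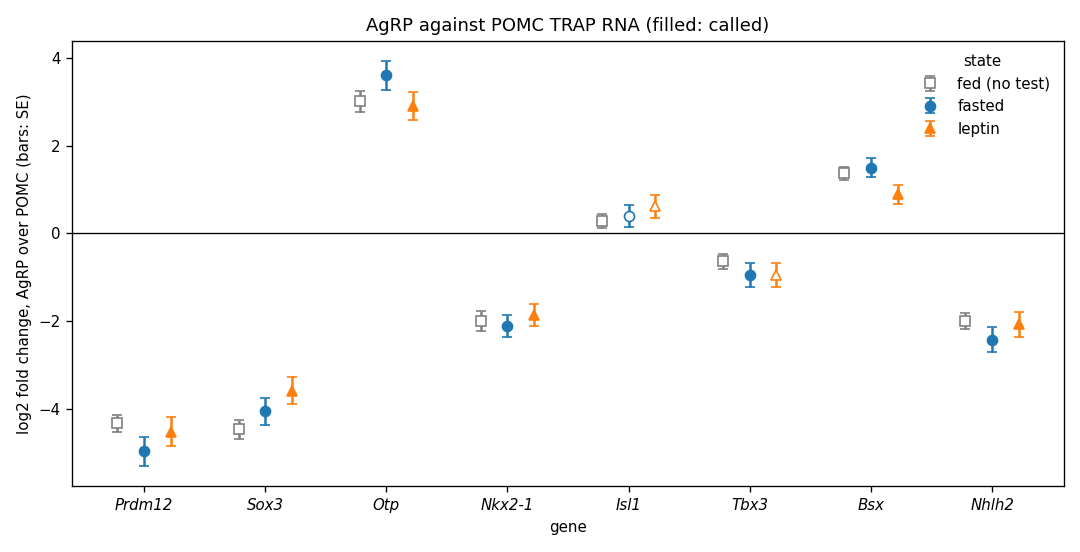
Log2 fold change of AgRP over POMC libraries for each member in fed, fasted and leptin-treated mice, with bars of 1 SE; filled points were called, and the fed values (squares) and those of *Otp* are descriptions. *Prdm12* and *Sox3* lie below -3.5 in each state and *Otp* above 2.8.

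Genes whose profile over the 17 RNA libraries was most like that of a member were found by the root mean square difference of centred log2 CPM. Only genes other than the members, with a mean over 1 CPM, were ranked, so likeness between members is not given. For *Prdm12* they were *Prokr1* (0.413), *D330045A20Rik* (0.518) and *Cartpt* (0.647), and *Sox3* had the same 3 with *Prokr1* nearest (0.358). *Otp* was most like *Acvr1c* (0.338), an activin receptor gene of the AgRP marker list, then *Tll1* (0.374) and *Zar1* (0.376). *Nkx2-1* was nearest to *Calb1* (0.205), *Slc18a2* (0.209) and *Gpr101* (0.236). *Nhlh2* lay nearest to *Mcf2* (0.101), then *Calb1* (0.230) and *Enpp1* (0.299). *Tbx3* was nearest to *Pi16* (0.186), *Hs6st2* (0.187) and *Klhdc8b* (0.189), and *Bsx* to *Ap1s3* (0.217), *Fosl2* (0.232) and *Ociad2* (0.243). No genes are named for *Isl1*, whose group means spanned 0.78 on the log2 scale, under the span of 1 set for naming. A likeness of profile says nothing of shared control.

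A list of 47 other transcription factors known from the hypothalamus gave the surroundings of these genes. Of 39 tested in fasted mice, 1 was called higher in AgRP libraries and 5 lower, and the list's median log2 fold change was -0.34 against -0.02 for all genes. Without AgRP fasted replicate 3 or POMC fasted replicate 1 the list had 3 lower. Markers of other cells moved the same way in this comparison, with medians of -0.60 for 4 microglia markers, -0.30 for 6 astrocyte markers and -0.29 for 8 tanycyte and ependymal markers, none of them called. Of 3 pituitary markers tested 1 was called lower, with a median of -1.89. The 6 markers of other arcuate neurons had a median of -0.27, with 1 called higher and 1 lower. *Insm1*, a zinc-finger factor of neuroendocrine differentiation, was higher (0.82, SE 0.20, FDR 0.0226), a call lost without AgRP fasted replicate 1 or 3 or either POMC library. The 3 largest falls were those of *Sox1* (-1.36, SE 0.23), *Six6* (-1.26, SE 0.27) and *Nr5a1* (-1.10, SE 0.26), the last a marker of the neighbouring ventromedial nucleus. *Six6* lost its call without POMC fasted replicate 1, and *Nr5a1* without that library or AgRP fasted replicate 3. In leptin-treated mice 1 of the 39 was called higher and 10 lower, with a median of -0.68 against -0.04 for all genes. The medians of the same microglia, astrocyte, and tanycyte and ependymal markers were then -0.51, -0.40 and -0.43. With the replicate block, whose error leaves out the spread between the sets of a line, 11 listed factors were lower in fasted mice and the calls over all genes went from 904 higher and 588 lower to 1425 and 1751. Those added calls are not counted either. Without the libraries numbered 4 and 2 of their lines, the fit with a lone POMC library per state, 2 were higher and 7 lower. The summed level of the list was itself higher in the libraries that stood apart, 1452 to 1586 CPM against 1013 to 1164 CPM in AgRP and 1715 to 1897 against 1125 to 1203 CPM in POMC libraries. The part of those libraries' other-cell RNA in the list's difference was not tested.

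No tested member was called between feeding states in either neuron type. In AgRP neurons 0 of the 5 members other than *Prdm12*, *Sox3* and *Otp* were called between fasted and fed mice. Over all 13401 genes 2.81% were called higher and 1.08% lower. The fed AgRP libraries of these 5 also enter the fed comparison of the lines, in which members were first seen. *Isl1* was nearest, with 61.1, 67.4 and 54.9 CPM in fed and 77.9, 69.1, 85.1 and 69.8 CPM in fasted libraries. Every fasted library was above every fed library, by 0.31 on the log2 scale (SE 0.11, unadjusted p 0.0168, FDR 0.144), and with the replicate block it was 0.33 at an FDR of 0.00449, still under the fold threshold. *Nkx2-1*, *Tbx3*, *Bsx* and *Nhlh2* had log2 fold changes between -0.11 (*Tbx3*) and -0.03 (*Bsx*). *Prdm12* (-0.25, SE 0.22) and *Sox3* (0.13, SE 0.27) are given as descriptions, since their fed AgRP libraries took part in their naming. *Otp*, which was named for this change and has no test, was 1.45-fold higher in fasted libraries (log2 fold change 0.53, SE 0.19), and every fasted library was above every fed library. Cell type markers moved in the same comparison. The median log2 fold change was 0.66 for the 5 AgRP neuron markers, with 5 above 0 and 0 called, and 0.47 for 6 markers of other arcuate neurons. It was -0.66 for 4 microglia markers, -0.24 for 6 astrocyte markers and 0.09 for 9 tanycyte and ependymal markers. Their part in the *Otp* and *Isl1* values was not tested. The block raised the calls over all genes from 376 higher and 145 lower to 591 and 346.

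Leptin against vehicle in fasted mice called 0 of the 7 members tested in AgRP neurons, where 1.19% of genes were called higher and 0.604% lower. *Bsx* had the largest change, with 8.65, 7.87, 10.7 and 10.8 CPM after leptin, all under the 4 fasted libraries (log2 fold change -0.41, SE 0.16, FDR 0.366). With the replicate block the *Bsx* FDR was 0.0158 and that of *Tbx3* (-0.24) 0.0464, both under the fold threshold. *Otp*, again without a test, was lower after leptin by -0.52 (SE 0.17), and 1 leptin library of 4 reached the lowest fasted library. Among the other hypothalamic factors 0 of 38 were called with fasting (median -0.13 against 0.02 for all genes). The part of the other-cell markers given above in the list's value was not tested. With leptin 1 of 38 was called, *Insm1*. It stood at 13, 11.7, 12.9 and 13.7 CPM in fasted and 27.8, 23.1, 33.3 and 18.7 CPM in leptin libraries (1.00, SE 0.15, FDR 0.00622). Leaving out the libraries numbered 4 gave 0 member calls in both AgRP state comparisons.

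In POMC neurons, with 2 libraries per state, 0 members were called with fasting or with leptin, and edgeR called 0% of 13412 genes in either comparison and either direction. At an unadjusted p under 0.05 there were 273 genes with fasting and 151 with leptin, and DESeq2 called 0 higher and 3 lower with fasting and 9 higher and 1 lower with leptin. *Prdm12*, which has no test against fed, had log2 fold changes of 0.39 (SE 0.46) with fasting, which became -0.08 without POMC fasted replicate 1, and -0.60 (SE 0.46, FDR 1.0) with leptin, and *Sox3* had -0.30 (SE 0.37) and -0.33 (SE 0.37). The SEs of all 8 members in these comparisons lay between 0.22 and 0.46. With the replicate block they lay between 0.11 and 0.17, and again 0 members were called (*Prdm12* after leptin -0.65, SE 0.13, FDR 0.207), while over all genes the block called 0 higher and 3 lower with fasting and 7 higher and 1 lower with leptin. Without the AgRP libraries numbered 4 and the POMC libraries numbered 2, in one model of both lines chosen after seeing the data, 0 members were called with either treatment. There the spread came from the AgRP libraries and the lone POMC library of a state is assumed to vary like them. *Prdm12* was then at 0.50 with fasting and -0.49 with leptin, and *Sox3* at -0.44 and -0.06.

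Whether leptin acted differently in the lines was tested as an interaction over the 12 fasted and leptin libraries. Of the 7 members tested 0 were called, where 0.0149% of genes were called higher and 0% lower. *Bsx* had the largest value, -0.61 (SE 0.29, unadjusted p 0.0569, FDR 1.0), with *Sox3* at 0.47 (SE 0.45) and *Prdm12* at 0.45 (SE 0.47). *Otp*, with no test, was at -0.70 (SE 0.39), and moved to -0.30 without POMC fasted replicate 1 and -1.23 without POMC fasted replicate 2. Without the AgRP libraries numbered 4 and the POMC libraries numbered 2, with a lone POMC library per state, *Bsx* was at -0.57, *Sox3* at 0.14, *Prdm12* at 0.17 and *Otp* at -0.93, and 0 members were called.

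**Figure D3:**
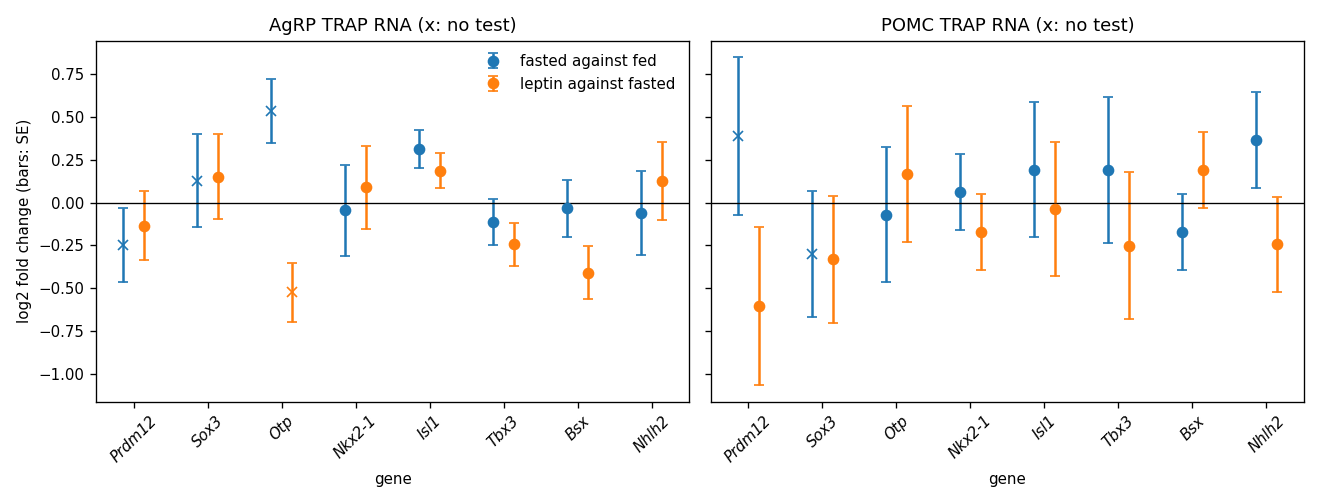
Log2 fold changes of the members with fasting and with leptin in AgRP and POMC libraries, with bars of 1 SE; crosses mark values that were used, wholly or in part, in naming the genes and have no test. No tested member passes the call threshold.

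Open chromatin around the genes separated AgRP-positive from AgRP-negative nuclei of fed mice. Of the 39 member peaks, 17 were called higher and 6 lower in AgRP-positive nuclei, where 24.1% of 66560 peaks were called higher and 15.3% lower. The share of member peaks called lower was near that of all peaks, and the share called higher was above it. The median log2 fold change was 0.87 for the member peaks and 0.00 for all peaks. All 4 *Bsx* peaks, 4 of 5 at *Isl1*, 4 of 9 at *Otp* and 3 of 5 at *Tbx3* were higher. At *Nkx2-1* 4 of 7 were lower and none was higher, and *Nhlh2* had 2 higher and 2 lower of 5. None of the 3 peaks in the *Prdm12* window or the *Sox3* peak was called. In the *Prdm12* window the peaks 30717 and 48356 bases downstream lie over start sites of other genes, *Exosc2* and *Abl1* with *Gm13427*. Without AgRP-negative replicate 2 the lower member peaks numbered 3. Each of the 4 *Nkx2-1* calls was lost when 1 or another library was left out, that of the peak 16932 bases downstream with any of the 4. The *Tbx3* calls 15530 and 20609 bases downstream were lost in DESeq2 (FDRs 0.0847 and 0.0723) and without AgRP-negative replicate 1 or AgRP-positive replicate 1. The *Otp* call 7739 bases downstream was lost in DESeq2 (0.0644) and without AgRP-negative replicate 2 or AgRP-positive replicate 2. The *Nhlh2* gain 24429 bases upstream (FDR 0.0475) was lost in DESeq2 (0.140), with no count filter (0.0557) and without either AgRP-negative library. The start-site calls of *Otp*, *Bsx*, *Tbx3* and *Isl1* were kept in each of these settings. Peaks near the same gene are not independent, and with 2 libraries a side the test takes its spread largely from the other peaks. Scaling by library size alone moved the median of all peaks to 0.16 and gave 18230 higher and 7133 lower calls in place of 16032 and 10177. The member calls were then 21 and 5.

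At the start sites, the *Otp* peak (chr13:94875044-94875809) was at 8.86 and 5.09 CPM in AgRP-negative and 26.2 and 17.7 CPM in AgRP-positive nuclei. On the log2 scale this was 1.65 (SE 0.23, FDR 1.24e-11). The *Bsx* peak (chr9:40873673-40874336) rose from 4.18 and 3.20 to 10.1 and 11.2 CPM (1.53, SE 0.31) and covers the promoter printed above. The *Tbx3* peak (chr5:119669950-119671111) rose from 14.2 in both to 34.5 and 31.6 CPM (1.22, SE 0.17), although *Tbx3* RNA was lower in AgRP than in POMC libraries. *Isl1* (chr13:116309376-116310374) stood at 20.8 and 19.3 against 40.6 and 37.6 CPM (0.96, SE 0.16). No POMC nuclei were measured, so the negative nuclei say nothing of POMC neurons alone.

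The other members had no gain at the start site. For *Nkx2-1* the nearest peak (chr12:56536470-56536718), 314 bases downstream in an exon, was at 2.83 and 4.50 CPM in AgRP-negative and 0.977 and 1.42 CPM in AgRP-positive nuclei (-1.60, SE 0.54). That call was lost without AgRP-negative replicate 2 or AgRP-positive replicate 1. The best-supported *Nkx2-1* peak, 2154 bases downstream (chr12:56534264-56535245), was lower by -1.03 (SE 0.28, FDR 0.00124). This peak covers another annotated start site of *Nkx2-1*, and its call was lost without AgRP-negative replicate 2. *Nhlh2* had lower peaks 1716 bases (chr3:102011564-102012020) and 2582 bases (chr3:102012244-102013073) downstream, both in exons of the gene. The former was at 5.78 and 6.63 CPM in AgRP-negative and 2.13 and 1.33 CPM in AgRP-positive nuclei (-1.84, SE 0.42), and the latter was lower by -1.44 (SE 0.31, FDR 2.04e-05). The *Sox3* peak over its start (chrX:60891911-60893470) overlapped between the groups, with 21.7 and 12.7 against 14.1 and 15.5 CPM (-0.21, SE 0.21). *Prdm12* had no peak at its start in this table. The nearest one, 14384 bases downstream in an exon (chr2:31653982-31654860), was at 21.3 and 27.3 against 18.1 and 17.3 CPM, lower in each AgRP-positive library but under the fold threshold (-0.46, SE 0.18, FDR 0.0277). Without AgRP-negative replicate 1 its log2 fold change was -0.63, beyond the fold threshold.

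The largest gains lay away from the start sites. A peak 44149 bases downstream of *Bsx*, in an intron of *Jhy* (chr9:40917978-40918575), was at 2.71 and 2.96 CPM in AgRP-negative and 22 and 26 CPM in AgRP-positive nuclei (3.08, SE 0.26, FDR 1.04e-28). At *Otp* the largest was 32171 bases downstream (chr13:94907604-94907942), with 0.985 and 0.592 against 4.35 and 6.41 CPM (2.76, SE 0.51). At *Isl1* the best-supported peak was 15904 bases downstream (chr13:116293329-116294241), with 10.7 and 10.5 against 45.2 and 42.6 CPM (2.05, SE 0.17, FDR 1.56e-29). The central 300 bases of the *Bsx* peak are shown because it had the largest difference of any member peak, on the plus strand of GRCm38.p6 (chr9:40918127-40918426), with 6 CpG in capitals. It was chosen after its values were seen.
Bsx peak: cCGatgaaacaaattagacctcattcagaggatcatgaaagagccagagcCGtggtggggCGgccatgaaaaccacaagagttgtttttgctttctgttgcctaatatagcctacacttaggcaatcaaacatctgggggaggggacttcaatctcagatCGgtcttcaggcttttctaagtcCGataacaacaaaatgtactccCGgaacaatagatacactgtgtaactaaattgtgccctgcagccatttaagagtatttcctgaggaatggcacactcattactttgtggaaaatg

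**Figure D4:**
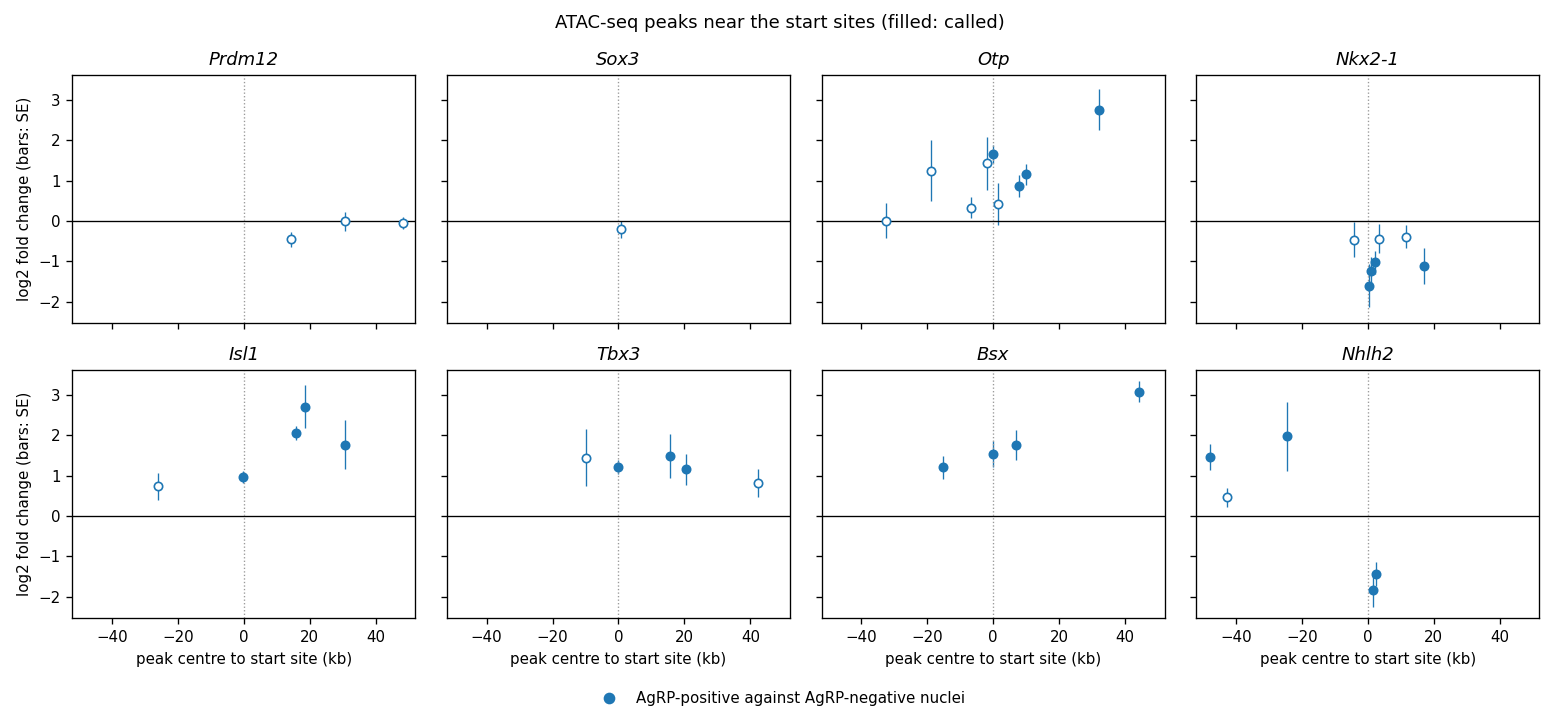
Log2 fold change of AgRP-positive over AgRP-negative nuclei for the 39 member peaks, against distance from the start site (kb, negative is upstream), by gene; bars are 1 SE and filled points were called. *Bsx* and *Isl1* points lie above 0 and *Nkx2-1* points below.

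In AgRP-positive nuclei of fasted against fed mice, 62 of the 71 member peaks passed the filter on low counts. Of these 8 were called higher and 1 lower, where 19% of 102237 peaks were called higher and 8.36% lower, and the 8 became 4 without either fasted library, and 5 without fed replicate 1 or in DESeq2. Without fed replicate 2 there were 7 lower among the members and 9964 lower among all 102871 peaks tested. The median log2 fold change of the member peaks was -0.07 against -0.04 for all peaks. The 5 members with called gains or losses had them in peaks away from the start. The start-site peaks of *Otp* (49.8 and 40.1 CPM fed, 35.6 and 32.3 CPM fasted), *Isl1* (57.8 and 47.0, 44.8 and 37.9 CPM), *Tbx3* (61.9 and 61.4, 56.2 and 66.6 CPM) and *Bsx* (17.6 and 19.9, 14.9 and 15.9 CPM) were not called. The *Otp* start-site peak was thus lower in both fasted libraries (-0.40, SE 0.19, FDR 0.114), while its RNA was higher. Without fed replicate 2 the *Otp* (-0.57, FDR 0.0432) and *Isl1* (-0.50, FDR 0.0451) start-site peaks were called lower.

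*Nhlh2* had the largest change, in a peak 44461 bases downstream that lies closer to the start of *Casq2* (chr3:102054205-102054870). It was at 1.61 and 0.361 CPM in fed, 5.23 and 8.72 CPM in fasted and 5.90 and 7.36 CPM in leptin-treated mice (fasted against fed 2.99, SE 0.51, FDR 0.0004). The fed libraries held 13 and 5 counts. At *Bsx* a peak 46105 bases downstream, also in the *Jhy* intron (chr9:40920136-40920328), went from 1.86 and 0.938 CPM fed to 5.29 and 4.61 CPM fasted (1.89, SE 0.42). At *Otp* a peak 48394 bases downstream (chr13:94923728-94924264) went from 1.36 and 1.66 to 3.83 and 4.98 CPM (1.52, SE 0.39), and was at 7.78 and 6.41 CPM after leptin. The *Tbx3* peak 35556 bases upstream (chr5:119634980-119635246) went from 0.743 and 1.80 to 4.21 and 3.43 CPM (1.49, SE 0.45). The *Otp* call was lost without fasted replicate 2 (FDR 0.0587) and the *Tbx3* call without fasted replicate 1 (0.0925) or fed replicate 1 (0.126).

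*Isl1* held the single loss. The peak 30797 bases downstream (chr13:116278653-116279132) was at 6.56 and 3.90 CPM in fed, 1.66 and 1.06 CPM in fasted and 1.18 and 1.28 CPM in leptin-treated mice (-1.92, SE 0.44, FDR 0.00331). It overlaps a peak of the sorted nuclei that was higher in AgRP-positive nuclei (chr13:116278739-116279105, 1.76, SE 0.60, FDR 0.0113), a call lost in DESeq2 (FDR 0.0572) and without AgRP-negative replicate 1 (0.106) or AgRP-positive replicate 1 (0.0600). *Isl1* RNA did not fall with it. The central 300 bases of the *Nhlh2* peak are given because it changed most with fasting (chr3:102054388-102054687, plus strand, 2 CpG in capitals), again chosen after its values were seen.
Nhlh2 peak: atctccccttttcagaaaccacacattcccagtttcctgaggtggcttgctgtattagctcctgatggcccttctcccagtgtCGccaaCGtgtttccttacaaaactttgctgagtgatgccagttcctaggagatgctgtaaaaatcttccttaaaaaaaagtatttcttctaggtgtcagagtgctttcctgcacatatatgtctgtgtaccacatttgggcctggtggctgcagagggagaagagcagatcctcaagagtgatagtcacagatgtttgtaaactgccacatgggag

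Leptin against vehicle called 0 of the 62 member peaks tested, where 1.44% of all peaks were called higher and 0.305% lower. The median log2 fold change was -0.16 for the member peaks and -0.02 for all. The *Tbx3* start-site peak had 50.9 and 44.1 CPM after leptin against 56.2 and 66.6 CPM in vehicle-treated mice (-0.37, SE 0.15, FDR 0.288), and that of *Otp* had 31.3 and 24.1 against 35.6 and 32.3 CPM (-0.29, SE 0.19, FDR 0.630). Neither was called. Both leptin libraries were below both fasted libraries at these peaks, but how often that holds over all peaks was not counted. The peak nearest the *Prdm12* start, 2099 bases upstream in an exon of *Gm13425*, was between 2.06 and 2.72 CPM in all 6 libraries.

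**Figure D5:**
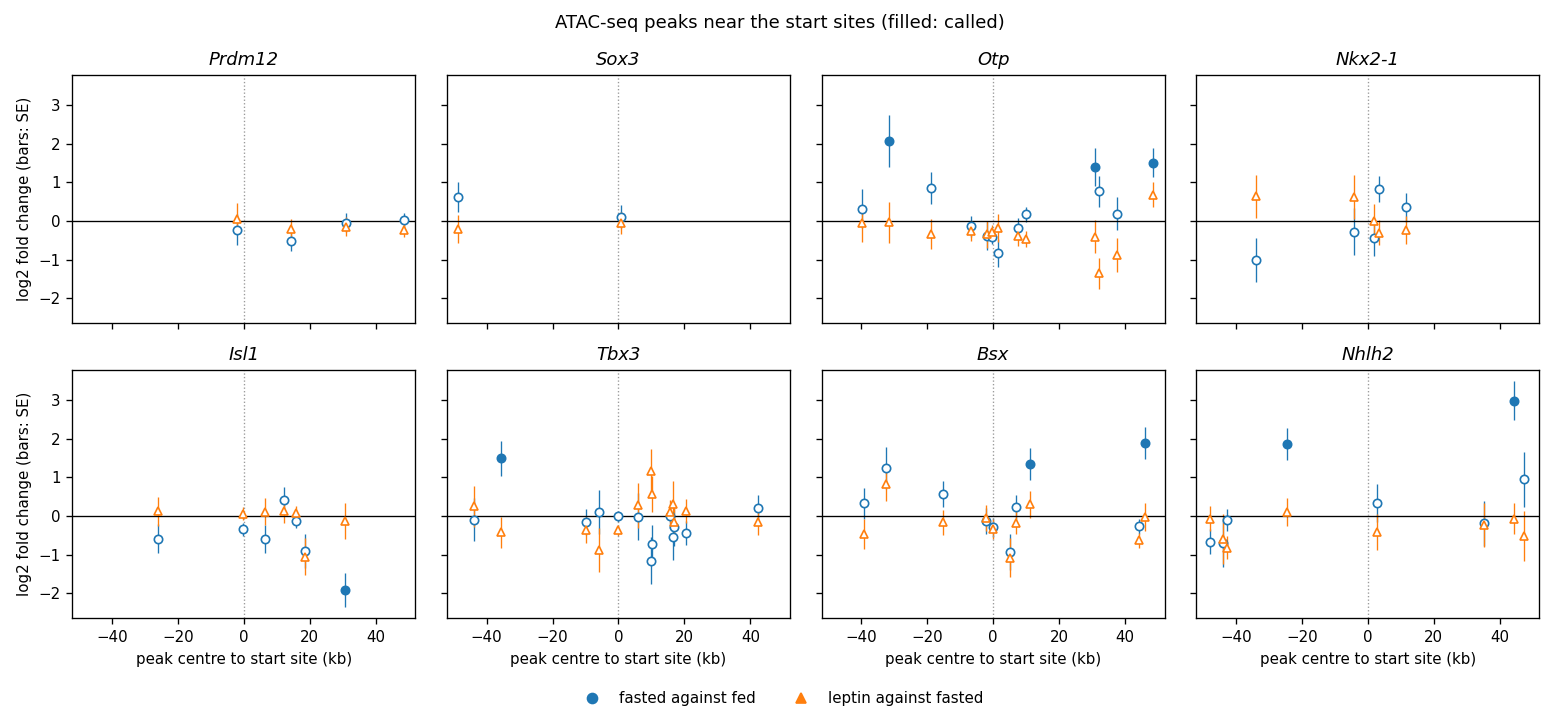
Log2 fold change of member peaks in AgRP-positive nuclei, fasted over fed (circles) and leptin over fasted (triangles), against distance from the start site (kb, negative is upstream), by gene; bars are 1 SE and filled points were called. The *Nhlh2* peak at 44.5 kb is the highest point and no triangle is filled.

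The motifs listed for the promoters were also counted in the central 300 bases of peaks. In the table of feeding states the AP-1 motif occurred in 12 of the 71 member peaks (16.9%) and in 31.2% of all peaks, and in that of sorted nuclei in 4 of 39 (10.3%) against 17.8%. The E-box occurred in 25.4% of member peaks of the state table against 19% of all, but in 17.9% against 19.6% in that of sorted nuclei. The STAT motif occurred in 18.3% against 12.4% and in 17.9% against 11.1%. In the state table the homeodomain core was in 2.82% against 6.27%, the SOX motif in 4.23% against 5.29%, and the T-box motif in none against 0.982%. The *Bsx* and *Nhlh2* peaks printed above hold no match to any of the 6. These shares are descriptions with no test.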

How the data were processed

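Ribosome-bound RNA and sorted nuclei were sequenced on a NextSeq500. The authors aligned RNA reads with HISAT2 to mm10 and deposited raw counts per gene from featureCounts; ATAC reads were aligned with Bowtie2, peaks called with MACS2 and merged, and raw counts per peak made with BEDtools and deposited. Versions are not given in the sources used here. From those counts, edgeR 4.0.16 (R 4.3.3) was run with TMM scaling, a mean over 1 CPM and its quasi-likelihood test. Calls needed an FDR under 0.05 and a log2 fold change beyond 0.5. An SE is the log2 fold change divided by the root of F. Start sites came from GENCODE vM21 and promoters from RefSeq (GRCm38.p6). Members, gene lists and tests were chosen with earlier results of these data known. Named were all members, the 3 genes most like each member whose group means spanned over 1 on the log2 scale, the 3 listed factors with the largest called change each way, and each member's start-site peak and best-supported called peak. Listed markers included those of AgRP, POMC and other arcuate neurons, astrocytes, microglia, tanycytes and ependyma, and the pituitary. One list is not reported here. Same-numbered RNA libraries deviated together (correlations of 0.536 to 0.814 over 10 AgRP pairs, 0.733 to 0.770 in POMC), and the number was an alternative block. Same-numbered ATAC libraries had correlations of 0.0988 (sorted nuclei) and -0.00228 to 0.165 (states, median 0.155). Those of the states were not over 0.1 in every pair and were not taken as paired. The paper describes AgRP-positive and AgRP-negative nuclei as sorted from the same pools. The fit reported for them did not use that pairing, and the block was an alternative. Nothing states that replicates came from separate cohorts, so p-values measure the spread between these samples. Errors cover the spread between libraries only. The fits were tested on simulated counts. Whole-arcuate RNA was not analysed here, nor was CUT&RUN used.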

Additional observations from a re-analysis of the deposited data

Results flagged for a closer look

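Marker sums, not members, held the outlying values. In 34 sets of 4 libraries examined, 5 had a library whose gap to its nearest neighbour exceeded 0.829 of the set's range, where chance gives about 1 in 20. Fasted AgRP replicate 4 had 954 CPM of astrocyte markers against 470 to 502 CPM in the other 3. It also had 36.5 CPM of microglia markers against 14.9 to 15.6 CPM, and 255 CPM of tanycyte and ependymal markers against 107 to 128 CPM. The summed level of the other hypothalamic transcription factors was 1452 CPM in that library against 1013 to 1069 CPM. Leptin AgRP replicate 4 had 1586 CPM of the same factors against 1078 to 1124 CPM. No member had an outlying library in its group of 4. With the libraries numbered 4 left out, 0 members were called between states in AgRP neurons, as with them.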

How the results depend on the processing

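No called difference reversed. For single genes, peaks and listed factors, settings other than leaving out 1 library kept 574 results on their side of the threshold (untested values within 1 SE, counts within 1.5 times), with 13 calls lost, 5 gained and 2 list counts moved further. Leaving out 1 library kept 579, with 48 calls lost, 4 gained and 9 untested values or list counts moved further. Sizes could still change, and values not called changed sign 62 times. Where this left 1 POMC or ATAC library in a group, it is assumed to vary like the other groups. With 1 library left out, members called higher in AgRP than POMC libraries after leptin ranged from 1 to 2, peaks called lower in AgRP-positive nuclei from 3 to 5 (reported 6; 3 without AgRP-negative replicate 2), and peaks called with fasting from 4 to 6 higher (reported 8; 4 without either fasted library) and from 1 to 7 lower (reported 1; 7 without fed replicate 2). Other windows hold other peaks. One of 20 kb gave 11 higher and 6 lower of 27 in AgRP-positive nuclei (all peaks 24.1% and 15.3%), and 1 and 0 of 35 with fasting (19% and 8.36%). One of 200 kb gave 41 and 22 of 120, 29 and 9 of 192 with fasting, and 2 and 1 of 192 with leptin (1.44% and 0.305%). DESeq2 gave 5 higher with fasting. ATAC replicates of the feeding states share only a number: a replicate block gave 2 lower peaks with fasting and 1 with leptin. AgRP-positive and AgRP-negative nuclei, by the paper, came from shared pools. With the replicate number as a block there, calls over all peaks went from 16032 higher and 10177 lower to 16713 and 10810. In RNA the replicate block changed no member call other than those of *Tbx3* and *Isl1* after leptin between the lines, where its error leaves out the spread between replicate sets. *Tbx3* lost its fasted call with library size alone (FDR 0.115) and with no count filter (0.0513), and gained one after leptin in DESeq2 (0.0167) and in a model of all 17 libraries (0.0254). The cause was not tested. Library size alone gave 147 higher and 90 lower genes with fasting in AgRP neurons in place of 376 and 145.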
